A study of Mus musculus with 4 samples.

Results

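The Klra genes of mouse chromosome 6 were examined in ATAC-seq values of mesenchymal stem cells (MSCs) of bone from old and young mice. Members were the 10 genes Klra1 to Klra10, and a peak was assigned to them when it overlapped a member gene or the 20 kb upstream of its start (GENCODE vM21, genome build mm10, which is GRCm38). This rule found 4 of the 117282 peaks of the deposited list, 2 at Klra4 and 2 at Klra2. The other 8 genes had no peak in the list. The cluster was chosen because a peak over exon 2 of Klra4 showed the largest log2 fold change of old against young cells among all peaks, so the contrast at the members is a description. No p is given for a member, and calls from the fit over all peaks are named only beside the share of all peaks called.

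The old mice were 18 to 22 months of age and the young mice 3 to 5 months. Each age group had 2 samples, and all 4 were cultured at 2% O2 without any other treatment named in the labels, which give neither strain nor sex. The labels also do not say whether the samples of a group came from separate animals, so the spread given here is that between samples and may be technical. ATAC-seq cuts and tags accessible DNA with a transposase, so more fragments at a site mean more open chromatin, and in a bulk sample a site that is open in more cells cannot be told apart from one that is more open in each cell. The deposited values were taken as counts per 10000000 of the library total, not divided by peak length. Library totals were calculated from this assumed scale and the value of a single count in each sample. They lay between 28259470 counts in young replicate 1 and 32559794 counts in old replicate 2. Comparisons between samples used values over their RLE factor, except where a ratio per library total is named, which sets the typical peak to no change and was 0.813 and 1.01 in the old samples and 1.07 and 1.15 in the young samples.

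Klra genes encode the Ly49 receptors, C-type lectin-like proteins on the surface of natural killer cells that bind MHC class I molecules on other cells. Most members are inhibitory and carry a tyrosine-based motif in the cytoplasmic part that recruits phosphatases such as SHP-1, the product of Ptpn6. Klra4, which encodes Ly49D, and Klra8, which encodes Ly49H, are activating and signal through the adaptor DAP12, the product of Tyrobp. Klra8 is known for recognising a protein of mouse cytomegalovirus. Klra2 encodes Ly49B and lies apart from the other members. Exon 2 encodes the cytoplasmic part of these receptors and exon 3 the region that spans the membrane. Mesenchymal stem cells are not known for using these receptors.

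Sequences are given first for the Klra4 exons that lay under the peaks with higher values in old cells. The exon 2 peak spanned chr6:130065001-130065700 and held all 112 coding bases of exon 2 and 52 bases of its untranslated part. The exon 3 peak spanned chr6:130062901-130063600 and held the 90 bases of exon 3. Both sequences were read from the RefSeq GRCm38 assembly on the minus strand, on which Klra4 is transcribed. Capitals mark coding exon, and lower case marks intron, so that most of each peak was intronic.
Klra4 exon 2, coding part and following intron, chr6:130065003-130065302: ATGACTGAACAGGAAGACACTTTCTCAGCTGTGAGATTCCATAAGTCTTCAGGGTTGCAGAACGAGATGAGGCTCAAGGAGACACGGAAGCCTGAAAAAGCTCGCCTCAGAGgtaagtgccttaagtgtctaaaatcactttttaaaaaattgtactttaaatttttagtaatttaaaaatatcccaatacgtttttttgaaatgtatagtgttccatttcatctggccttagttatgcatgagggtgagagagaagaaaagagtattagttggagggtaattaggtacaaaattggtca
Klra4 exon 3 with flanking introns, chr6:130063000-130063299: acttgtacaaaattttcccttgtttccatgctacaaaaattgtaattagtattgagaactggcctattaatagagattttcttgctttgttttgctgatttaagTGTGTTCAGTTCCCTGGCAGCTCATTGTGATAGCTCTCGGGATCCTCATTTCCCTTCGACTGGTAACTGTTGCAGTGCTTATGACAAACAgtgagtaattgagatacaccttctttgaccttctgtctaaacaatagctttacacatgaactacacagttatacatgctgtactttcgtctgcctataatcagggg

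The coding part of exon 2 had the same length of 112 bases in all 10 members, which lets them be compared base by base. It differed from Klra4 at 26 bases in Klra8, the closest member, and at 29 bases in Klra2, the only other member with peaks. Klra1 was the most distant member, with 35 differences. These 4 sequences are shown to give the scale of the similarity between genes to which reads had to be assigned, and capitals in the last 3 mark bases that differ from Klra4.
Klra4: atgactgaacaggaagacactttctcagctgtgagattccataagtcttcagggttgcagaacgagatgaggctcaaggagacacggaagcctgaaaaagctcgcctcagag
Klra8: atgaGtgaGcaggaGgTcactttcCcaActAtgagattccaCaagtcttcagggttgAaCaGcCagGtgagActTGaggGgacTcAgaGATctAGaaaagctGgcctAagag
Klra2: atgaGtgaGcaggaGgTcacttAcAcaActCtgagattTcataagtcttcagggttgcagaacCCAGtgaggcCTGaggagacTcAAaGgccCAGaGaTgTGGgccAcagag
Klra1: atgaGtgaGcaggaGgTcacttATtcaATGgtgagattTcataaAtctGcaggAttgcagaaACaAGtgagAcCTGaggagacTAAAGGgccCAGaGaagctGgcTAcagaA
Counted from 1 at the A of the start codon, codon 8 (bases 22 to 24) read TTC in the activating members Klra4 and Klra8. It read TAC in 7 members, a T23A difference from Klra4, and TAT in Klra1, with T23A and C24T. This codon lies in the stretch where inhibitory members carry their tyrosine-based motif.

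At Klra4, both peaks were higher in both old samples than in either young sample. The exon 2 peak had deposited values of 20.3 in old replicate 1 and 16.3 in old replicate 2, against 1.77 in young replicate 1 and 1.36 in young replicate 2. These values stood for 58, 53, 5 and 4 counts. The old samples were well above the young samples, and the old samples differed from each other more than the young samples did. After RLE scaling the values were 20.6 ± 6.22 in old and 1.42 ± 0.333 in young cells (SD, n = 2 each), a log2 fold change of 3.13 with a standard error of 0.37 on the log2(value + 1) scale. It was the value that led to the choice of the cluster, ranking 1 among all 117282 peaks. When every old sample was set against every young sample, the 4 log2 differences lay between 2.69 and 3.57.

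The exon 3 peak lay 1.4 kb further into Klra4 and showed the same order of samples. Its deposited values were 10.8 and 13.2 in old replicates 1 and 2, and 0.708 and 2.38 in young replicates 1 and 2. They stood for 31, 43, 2 and 7 counts, so that young replicate 1 was under the floor of 3 counts used here for a detectable signal. The old samples nearly coincided after scaling, at 13.2 ± 0.160, and the young samples stood at 1.37 ± 1.00 (SD, n = 2 each). The log2 fold change was 2.65 with a standard error of 0.41, which ranked 5 among all peaks, and the 4 differences between single samples lay between 2.20 and 3.11. Klra4 thus held 2 of the 41 peaks with a log2 fold change above 2.

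Because the young values at Klra4 were so low, the counts themselves were compared. Summed over the samples of a group, the exon 2 peak had 111 counts in old and 9 in young cells, a ratio per library total of 11.6 (exact 95% confidence interval from 5.91 to 26.1). The exon 3 peak had 74 and 9 counts, a ratio of 7.75 (3.87 to 17.6). These intervals cover counting error only, and they are too narrow where a read entered several bins of the peak caller. They give the precision of values on which the cluster was selected and are no test of a difference. The ratios are per library total, without RLE factors, and on that scale the typical peak of the list had a log2 fold change of -0.27 (median).

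**Figure D1:**
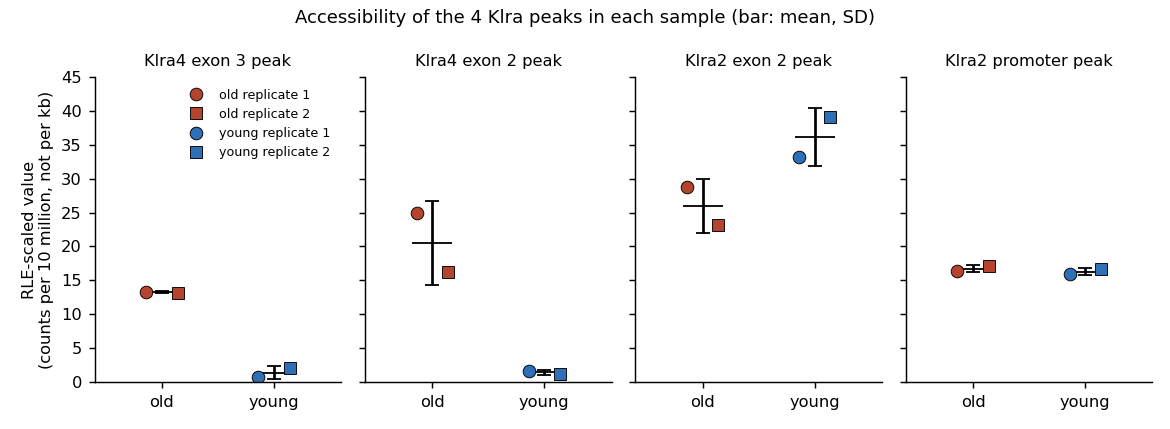
RLE-scaled value (y axis, counts per 10000000 of the library total) of each Klra peak in the old and young samples (x axis), with points for samples and a bar for the mean and SD of 2. Both Klra4 peaks stand at 13.1 or more in old and at 2.08 or less in young samples, whereas the old samples of the Klra2 exon 2 peak lie below the young ones and those of the Klra2 promoter peak lie among them.

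Klra2 did not share this pattern. Its promoter peak, chr6:131247001-131247700, covered exon 1 and the start of the gene. It had deposited values of 13.3 and 17.2 in old replicates 1 and 2, and of 17.0 and 19.0 in young replicates 1 and 2. The old and young samples overlapped, and after RLE scaling the means were 16.7 ± 0.513 in old and 16.3 ± 0.493 in young cells (SD, n = 2 each). The log2 fold change was 0.036 with a standard error of 0.26, and the ratio of the counts per library total, without RLE factors, was 0.852 (0.638 to 1.14). The ratio of the RLE-scaled means was 1.03, so the direction at this peak turned with the scaling.

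The second Klra2 peak, chr6:131244001-131245700, was 1700 bases long and covered exon 2 with the introns beside it. Its deposited values were 23.4 and 23.3 in old replicates 1 and 2, and 35.4 and 44.9 in young replicates 1 and 2. Here the order was turned, with the old samples under the young ones. After scaling the values were 26.0 ± 4.00 in old and 36.2 ± 4.24 in young cells (SD, n = 2 each), with a log2 fold change of -0.46 and a standard error of 0.23. The ratio of the counts per library total was 0.581 (0.469 to 0.719), and that of the RLE-scaled means was 0.719. This peak holds the counterpart of the Klra4 exon 2 peak, so that the same exon of the 2 genes had log2 fold changes of opposite sign.

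The ratio of Klra4 to Klra2 within a sample does not depend on the scaling between samples. The summed Klra4 peaks had 0.848 and 0.727 times the summed Klra2 value in old replicates 1 and 2, and 0.0473 and 0.0585 times that value in young replicates 1 and 2. The ratio was thus higher in both old samples than in either young sample. Summed over all 4 peaks, the RLE-scaled values were 83.5 and 69.5 in the old and 51.4 and 59.1 in the young samples. Without the exon 2 peak of Klra4 the sums overlapped, at 58.5 and 53.4 in the old and 49.8 and 57.9 in the young samples, and their log2 ratio was 0.056. Without both Klra4 peaks the log2 ratio was -0.30.

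Levels of the 4 peaks can be set side by side only per length. Per kb, the mean RLE-scaled value of old cells was 29.4 at the Klra4 exon 2 peak, 23.9 at the Klra2 promoter peak, 18.9 at the Klra4 exon 3 peak and 15.3 at the Klra2 exon 2 peak. In young cells it was 23.2 at the Klra2 promoter peak, 21.3 at the Klra2 exon 2 peak, 2.03 at the Klra4 exon 2 peak and 1.96 at the Klra4 exon 3 peak. In old cells the Klra4 exon 2 peak therefore lay above the Klra2 promoter peak and the exon 3 peak below it, while in young cells both Klra4 peaks lay far below it.

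A limma test on log2 values over all peaks (Benjamini-Hochberg adjustment, false discovery rate 0.01) called both Klra4 peaks higher in old cells and neither Klra2 peak. Over all peaks, 0.0256% were called higher and 0.0307% lower in old cells. Both old samples lay above both young samples at 2 of the 4 Klra peaks, against 23.2% of all peaks, and below them at 1 of 4, against 24.2% of all peaks. Since the members were selected on this contrast, nothing is read from these counts. The median log2 fold change was 1.34 over the 4 Klra peaks and 0.0011 over all peaks. The value of 1.34 lies between the Klra2 and the Klra4 peaks, and no Klra peak was near it. It rests in part on the values that led to the choice, so no shift of the cluster is read from it. Without young replicate 2 neither Klra4 peak was called, and no peak of the list was; without young replicate 1 the exon 3 peak was not called.

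**Figure D2:**
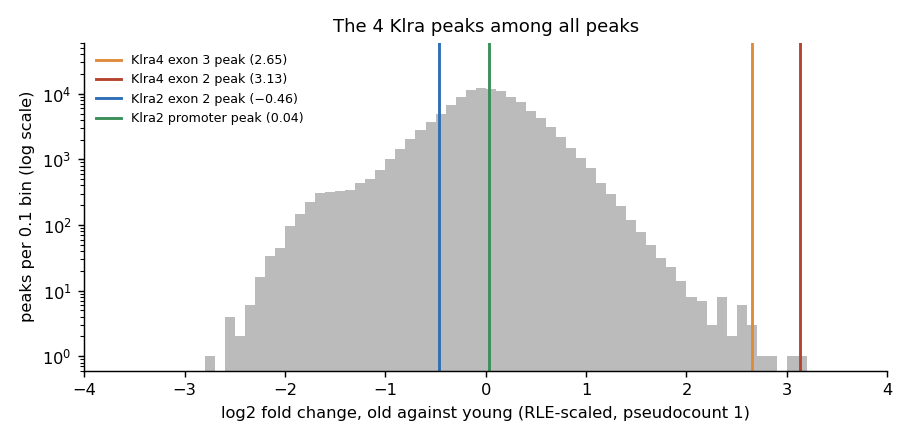
Histogram of the log2 fold change of old against young cells (x axis) over all 117282 peaks, with the number of peaks per bin on a log scale (y axis) and vertical lines for the 4 Klra peaks. The Klra4 peaks (2.65 and 3.13) stand in the thin upper end of the distribution, and the Klra2 peaks (-0.46 and 0.036) in its bulk.

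The peaks were unevenly placed along the cluster. From Klra5 to Klra1, 9 member genes with their upstream windows spanned 508 kb and held only the 2 Klra4 peaks, which is 3.94 peaks per Mb against 42.7 per Mb on the whole of chromosome 6. The nearest peak beyond the exon 3 peak was 452.5 kb away, and the nearest beyond the exon 2 peak was 1132.5 kb away, near Klra2. Neither Klra4 peak was at the start of the gene: read from the start, the exon 2 peak began 1.57 kb into the gene, and the first exon and the region upstream had no peak in the list. The list does not cover the remaining exons of Klra4, which has 7, either. The level of the other 8 genes was not analysed here, as values come with listed peaks, and the comparison within the cluster is one of Klra4 with Klra2.

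**Figure D3:**
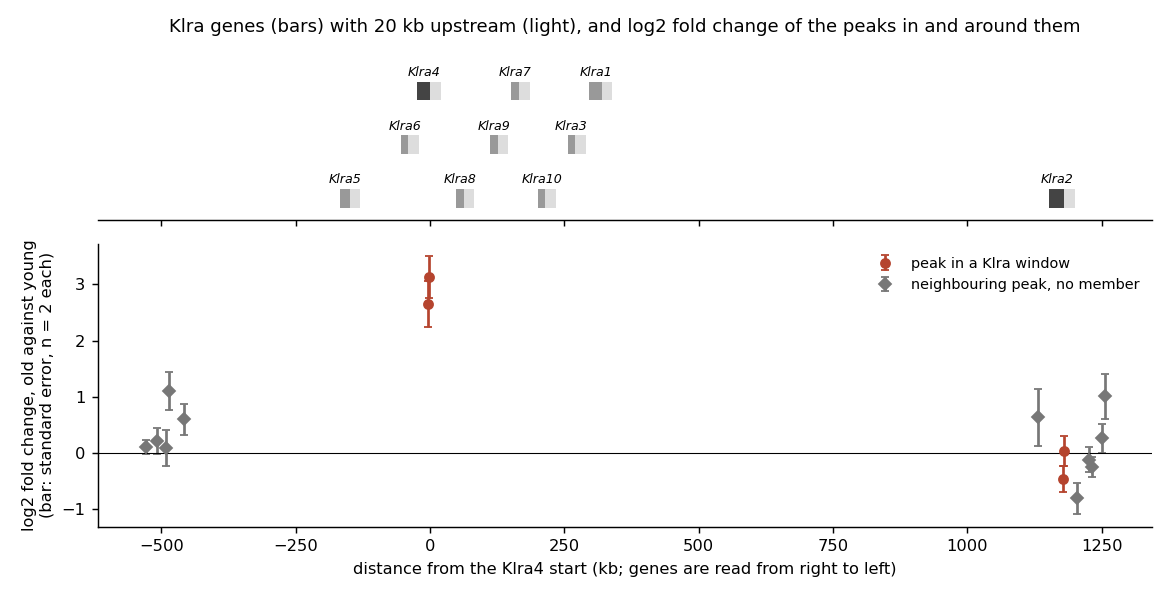
Map of the Klra genes to scale (upper panel, x axis in kb from the Klra4 start; dark bars have peaks, light extensions are the 20 kb upstream) and log2 fold change of each peak with its standard error (lower panel). The Klra4 peaks, at 2.65 and 3.13, are the only peaks listed from Klra5 to Klra1, and the Klra2 peaks and the neighbouring peaks lie between -0.81 and 1.11.

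Just outside the windows, values were read for the nearest peaks on each side. Upstream of the Klra2 window by 2.54 kb, at chr6:131269901-131270900, the RLE-scaled values were 18.9 and 11.6 in the old and 24.5 and 29.1 in the young samples. The old samples were below the young ones there, as at the Klra2 exon 2 peak. The next 4 peaks on that side, around the starts of Magohb and Styk1, had log2 fold changes from -0.25 to 1.01. On the far side of Klra5, at a distance of 288.6 kb or more, 5 peaks around Gabarapl1, Klre1 and Klrk1 had log2 fold changes from 0.085 to 1.11. None of these 10 neighbours was called, beside 0.0256% called higher and 0.0307% called lower over all peaks, so nothing is read from this. A peak of 100 bases between Klra1 and Klra2, chosen for mention after its values were seen, had 5 and 7 counts in the old and 1 and 7 counts in the young samples, and so was too shallow to place.

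Similar genes can share reads, and the sequence under each peak was therefore compared with the autosomes, X and Y. Only exact matches of a word were counted, so words with nearly identical copies elsewhere count as unique. Words of 50 bases that occur once on these chromosomes made up 94.3% of the Klra4 exon 2 peak, 99.6% of the exon 3 peak and 100% of both Klra2 peaks. At 100 bases the share was 100% at all 4 peaks. Across the whole gene bodies, the share of unique 50-base words ran from 52.4% in Klra9 and 55.1% in Klra10 to 95.5% in Klra1. It was 86.1% in Klra4 and 69.2% in Klra2. Klra5, Klra6 and Klra1 had higher shares than Klra4 by this measure and no peak in the list. With 100-base words over the gene and its 20 kb upstream, the share was 94.4% in Klra5, 99.7% in Klra6 and 99.6% in Klra1, against 95.8% in Klra4. The part of uniqueness in which genes had a listed peak was not tested.

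**Figure D4:**
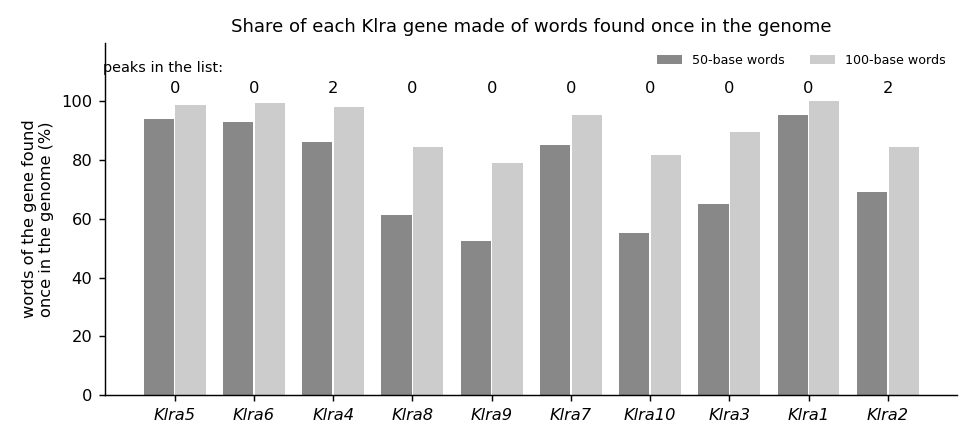
Share of 50-base and 100-base words of each Klra gene that occur once, by exact match, on the autosomes, X and Y (y axis, percent), with genes in chromosome order (x axis) and the number of listed peaks above the bars. By 50-base words the highest share is that of Klra1 (95.5%), which has no listed peak, and the 2 genes with peaks stand at 86.1% (Klra4) and 69.2% (Klra2).

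The best matches of the Klra4 peaks elsewhere in the family were in Klra8. Over 739 aligned bases the exon 3 peak was 78.9% identical to Klra8, and over 538 aligned bases the exon 2 peak was 82.0% identical to it. No peak was listed over either Klra8 match. There, 68.9% and 47.3% of the 50-base words were unique, fewer than under the Klra4 peaks. The Klra4 exon 2 peak was 74.0% identical to the exon 2 stretch of Klra2 over 334 bases, and this was the only match of that peak in another member with a listed peak over it.

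The starts of the 2 genes give a contrast of their own, because the Klra2 start lay under a peak and the Klra4 start did not. The 250 bases upstream of each start (RefSeq, GRCm38, minus strand) are shown with capitals for runs of at least 12 bases that occur in both.
Klra4, chr6:130067272-130067521: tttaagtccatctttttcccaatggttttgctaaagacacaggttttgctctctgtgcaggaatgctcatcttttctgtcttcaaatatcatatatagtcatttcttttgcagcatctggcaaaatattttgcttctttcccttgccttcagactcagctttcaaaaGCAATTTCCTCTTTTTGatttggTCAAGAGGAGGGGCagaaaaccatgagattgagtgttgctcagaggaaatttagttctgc
Klra2, chr6:131247363-131247612: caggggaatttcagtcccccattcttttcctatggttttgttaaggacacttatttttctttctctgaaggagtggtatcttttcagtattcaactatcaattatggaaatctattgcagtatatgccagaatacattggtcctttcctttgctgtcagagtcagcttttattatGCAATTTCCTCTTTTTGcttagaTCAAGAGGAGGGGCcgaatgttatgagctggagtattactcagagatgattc
Shared runs made up 12.4% of each sequence. The stretch of Klra4 that matched the Klra2 promoter peak was 70.5% identical over 643 bases and contained the Klra4 exon 1, and 62.6% of its 50-base words were unique. This share was lower than the 94.3% and 99.6% under the Klra4 peaks at exons 2 and 3.

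The 4 peaks were poor in G and C, with 36.2% to 39.1% against a median of 46.1% over all peaks. Repeats made up 39.4% of the Klra4 exon 2 peak, between 3.57% and 15.6% of the other 3 peaks and a median of 14.1% of all peaks. Letters of 5 motifs were searched on both strands, and matches of different motifs could overlap. The AP-1 letters TGANTCA occurred once in the Klra4 exon 3 peak and were absent from the exon 2 peak, against 42.0% of the 8543 listed peaks of the same 700 bases. The TEAD letters GGAATG and the CEBP letters TTGCNNAA each occurred once in the exon 2 peak and not in the exon 3 peak, against 40.5% and 32.9% of peaks of that length. Neither Klra4 peak held the RUNX letters TGTGGT, which 50.7% of such peaks did, and both held the E-box letters CANNTG, as 97.7% of them did. The AP-1 and TEAD letters that were found are common, and the 2 Klra4 peaks had none but the E-box letters in common.

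Around the Klra genes, the natural killer gene complex holds further lectin-like receptor genes. Of 29 such genes on a list, 28 were in the annotation and 22 had a peak in the same kind of window, 46 peaks in all. None was called in either direction (limma, false discovery rate 0.01), beside 0.0256% called higher and 0.0307% called lower over all peaks. With calls so rare, nothing is read from their absence here. Both old samples were above both young samples at 14 of the 46 peaks and below them at 11, beside 23.2% and 24.2% of all peaks. The median log2 fold change was 0.11, and single peaks ranged from -1.18 to 1.47. At Klrk1, which encodes the activating receptor NKG2D, the peak had RLE-scaled values of 20.7 and 16.8 in the old and 12.6 and 11.3 in the young samples, a log2 fold change of 0.60. At chr6:129581201-129582000, in the windows of Klre1 and of Klrd1, the latter encoding CD94, it was 1.11, with 14.2 and 11.6 against 6.97 and 4.16. Another peak in both windows, chr6:129575001-129576000, had 0.085, with 25.4 and 13.1 in the old and 22.6 and 13.1 in the young samples. A further Klre1 peak, chr6:129557401-129559900, had 0.21. The old samples lay above the young ones at all of these but chr6:129575001-129576000, though by far less than at Klra4.

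Genes that act with the receptors were followed at their promoters. Of 13 adaptor and signalling genes, 9 had a promoter peak, 13 peaks in all, with a median log2 fold change of 0.038 and none called. Tyrobp, the adaptor of the activating members, had no promoter peak in the list, and neither did Lat, Lcp2 and Vav1, which act downstream of immune receptors. Ptpn6, the phosphatase of the inhibitory members, had log2 fold changes of 0.046 and 0.52 at its 2 peaks. All 10 genes of the MHC class I ligands and their loading had a promoter peak. Their log2 fold changes ran from -0.34 to 0.10 with a median of -0.0081. B2m, the light chain of MHC class I, had RLE-scaled values of 159.6 and 154.9 in the old and 155.2 and 154.9 in the young samples, and H2-D1, a ligand of Ly49 receptors, had 54.6 and 55.2 against 70.3 and 52.5. The ligands thus had accessible promoters in all 4 samples, and none of these 10 peaks was called. Over all peaks only 0.0256% were called higher and 0.0307% lower, so nothing is read from the absence of calls in both lists.

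**Figure D5:**
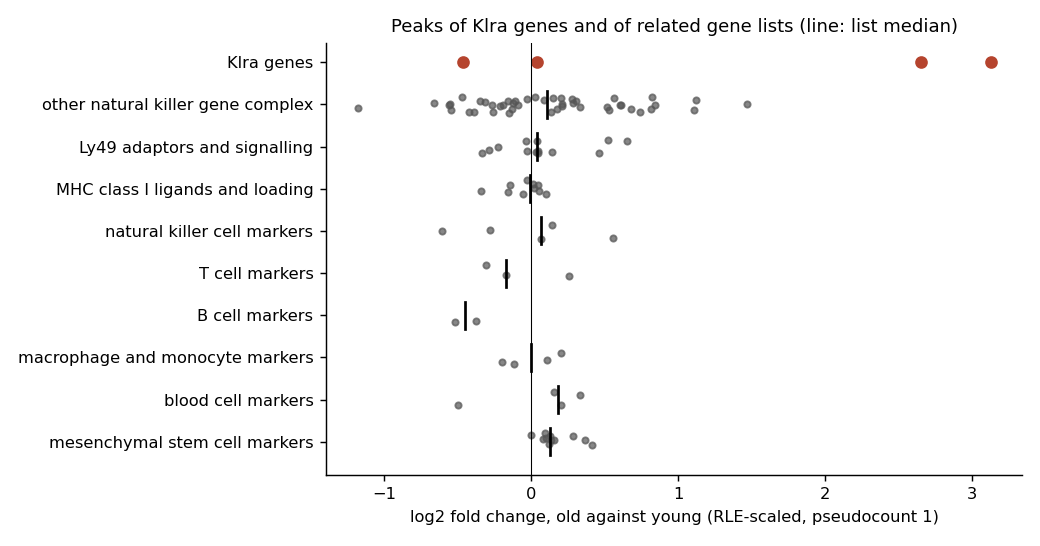
Log2 fold change of old against young cells (x axis) at each peak of the Klra genes and of 9 gene lists (y axis), with a vertical line at each list's median. Of the lists, the widest is the natural killer gene complex, from -1.18 to 1.47, and the Klra4 peaks lie above all of its peaks.

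Markers of other cell types were read in the same way, since Klra genes are known from natural killer cells. Of 10 natural killer cell markers, 5 had a promoter peak, and their summed RLE-scaled values were 203 and 209 in the old and 217 and 220 in the young samples. The sum was lower in both old samples, but its members differed in sign. Il2rb, a receptor chain for interleukin signals, had a log2 fold change of -0.61, with both old values below both young values, and Nkg7 one of -0.28. Itga2, with both old values above both young values, had 0.56, Gzmb 0.14 and Eomes 0.068, and the median was 0.068. The part of natural killer cells in the Klra4 values was not tested. Ncr1, Gzma, Prf1, Tbx21 and Klrb1c, which include defining genes of these cells, had no promoter peak in the list. By the window rule used for the Klra genes, Klrb1c did have listed peaks. The strongest, chr6:128802301-128804100, had RLE-scaled values of 161 and 146 in the old and 186 and 185 in the young samples. At its other listed peaks the old and young samples overlapped. Among T cell markers 3 of 9 had a promoter peak, with sums of 165 and 123 in the old and 154 and 147 in the young samples. Cd3e, Cd3g, Cd4 and Cd8a were not among them. Of the B cell markers, Pax5 alone of 6 had promoter peaks, with sums of 41.3 and 27.1 against 49.4 and 40.1.

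Macrophage and monocyte markers had promoter peaks at 4 of 8 genes, with sums of 432 and 621 in the old and 576 and 511 in the young samples, and Adgre1, Itgam, Fcgr1 and Mrc1 had none. Blood cell markers had them at 4 of 6, with sums of 109 and 119 against 125 and 107, and Ptprc, which encodes CD45, and Gata1 had none. Old and young sums overlapped for the T cell, B cell, macrophage and blood lists. All 10 mesenchymal stem cell markers had promoter peaks, with sums of 2369 and 3028 against 2396 and 2396. No peak of these lists was called, beside 0.0256% called higher and 0.0307% called lower over all peaks, so nothing is read from this. Pdgfra, which encodes CD140a, had 357 and 424 in the old and 344 and 296 in the young samples, so the labelled cell type had its defining marker open in every sample.

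Last, the genome was searched for peaks whose pattern over the 4 samples was nearest to that of the Klra4 exon 2 peak (Euclidean distance between centred log2 values). The nearest lay at chr4:48683601-48684700, 20.1 kb from the start of Cavin4, at a pattern distance of 0.43. Its RLE-scaled values were 29.3 and 25.6 in the old and 3.65 and 2.37 in the young samples. The others, at pattern distances from 0.57 to 0.69, had Trps1, Kitl, Zfhx4 and C530025M09Rik as the protein-coding genes with the nearest starts. Those starts were 32838, 9785, 783226 and 104188 bases away. The peak near Kitl was inside that gene, and the one with C530025M09Rik as nearest start was inside Syndig1. The Kitl peak was 300 bases long, with 18 and 20 counts in the old and 2 and 0 counts in the young samples. The Klra4 exon 3 peak ranked 12 of all peaks in this order, at a distance of 1.04. None of the 5 nearest peaks was on chromosome 6. This likeness is a description of 4 samples.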

How the data were processed

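The authors deposited 1 value per peak and sample for 117282 peaks on mm10, under the name RPKM. Every value was a whole multiple of a step, the same for narrow and wide peaks (tolerance 0.05 counts), so the deposited values were treated as a score, counts per 10000000 of the library total. For hypoxia- and normoxia-cultured cells the paper describes bowtie2 for mapping, Picard for marking duplicates and chromstaR for peaks. The submitters' processing notes name Bowtie2, Picard and mm10 for the samples used here. Steps for old cells are otherwise not given in the sources used here.

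Values were divided by RLE factors, and log2(value + 1) was fitted with limma 3.58.1 in R 4.3.3 (trend and robust moderation, Benjamini-Hochberg over all peaks, false discovery rate 0.01). An exact permutation test of 2 samples against 2 cannot go below p = 0.33. The fit was tested on simulated data. Sequences came from the RefSeq GRCm38 assembly and upstream table, exons from GENCODE vM21, family matches from blastn 2.17.0 and summaries from Python 3.11.15. Library totals were 28600303 and 32559794 counts in old replicates 1 and 2, and 28259470 and 29413803 in young replicates 1 and 2. The totals are called counts because a read may enter several bins of the peak caller. Intervals are exact 95% intervals.

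The members, the gene lists and the tests were chosen with earlier results of these data known. Named were all member peaks, the 5 nearest peaks on each side, peaks of the natural killer gene complex by counts, promoter peaks (within 1 kb of a start) of the other lists by counts, ranges and defining markers, and the 5 peaks most like the Klra4 exon 2 peak. The Klrk1, Klre1 and Klrd1 peaks are among the neighbours. Results were recomputed with pseudocounts of 0.1 and 5, other scalings, a filter on weak peaks, plain moderation, limma-voom, a false discovery rate of 0.05, a replicate block, each sample left out, and windows of 5 and 50 kb. Protein sequences were not used here.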

Additional observations from a re-analysis of the deposited data

How the results depend on the processing

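The Klra4 exon 2 peak had a log2 fold change of 3.13, which became 3.75 with a pseudocount of 0.1 and 1.97 with a pseudocount of 5, and 2.86 to 3.43 when each sample was left out. Of 117282 peaks 66 were called, 30 of them higher in old cells, against 1385 on values as deposited (52 higher, median log2 fold change of all peaks -0.27), 22 with equal total signal (15 higher), 24 with a pseudocount of 0.1, 144 with limma-voom on recovered counts, 15 after a filter at the lower quartile and 1316 at a false discovery rate of 0.05. Plain limma moderation called 0 peaks, with 18137 at an unadjusted p under 0.05. Leaving out single samples gave 0 (young replicate 2, with 8148 at an unadjusted p under 0.05) to 10356 calls (old replicate 1), 1678 without old replicate 2 and 8 without young replicate 1. There the lone sample of a group is assumed to vary like the others.

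The 2 Klra peaks called became 1 with equal total signal, with a pseudocount of 0.1, with limma-voom and after the filter, which removed the exon 3 peak, and 0 with plain moderation. They were 0 to 2 when a sample was left out. Except for the filter, the cause was not tested. The median log2 fold change of the Klra peaks, 1.34, was 1.10 on values as deposited, 1.70 and 0.78 with pseudocounts of 0.1 and 5, 1.10 to 1.51 with a sample left out, 0.036 for peaks above 3 counts in every sample, -0.041 with 50 kb windows, which add 2 peaks beyond Klra2, and -0.21 for the Klra2 peaks alone, an alternative added after the data were seen.

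The log2 ratio of the summed other Klra peaks, 0.056, was -0.24 on values as deposited, -0.11 with 50 kb windows, -0.30 for peaks above 3 counts, -0.30 for the Klra2 peaks alone and -0.053 to 0.17 with a sample left out, with -0.015 without old replicate 1, so its sign is not settled. Klra peaks higher in both old samples numbered 2, 3 with equal total signal, 0 for the Klra2 peaks alone and 2 to 3 with a sample left out.

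With a replicate block, 1269 peaks were called, 362 of them higher in old cells, and 2 of the Klra peaks. Samples with the same number shared only that number (correlation of their deviations -0.0993).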

Other observations

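Within the natural killer gene complex, the peaks at the ends of the range were looked up after their values were seen. Klrb1f, a lectin-like receptor gene of the same complex, had the largest log2 fold change of the list, 1.47, at chr6:129051701-129052300, with RLE-scaled values of 11.2 and 9.45 in the old and 2.65 and 3.56 in the young samples. A further Klrb1f peak had a log2 fold change of 1.12, and the peak at chr6:129048401-129050400 one of -0.35, so the peaks of this gene did not share a direction. Clec2e, another lectin-like gene of the complex, had the lowest value, -1.18, with 38.7 and 38.7 in the old and 85.2 and 93.2 in the young samples. None of these peaks was called by limma at a false discovery rate of 0.01, beside 0.0256% called higher and 0.0307% called lower over all peaks.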
